A study of Homo sapiens with 12 samples.

Results

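SOX4, SOX9, CDX1, CDX2, HNF4A, GATA6, KLF4, KLF5 and ATOH1 are 9 transcription factor genes of the intestinal epithelium, and their RNA was followed in 12 libraries of HCT116 and LoVo cells. They were chosen by gene symbol from the 62656 genes of the deposited count table. The list was drawn up with earlier results of these data known and names SOX4 first. The levels and changes of all 4 groups therefore count as used in that choice, and the member counts, intervals and adjusted p-values below describe the fits and support nothing further. HCT116 and LoVo are established human colorectal cancer cell lines. The study asked what the long non-coding RNA SLERT does in them, using 4 groups of 3 libraries. In HCT116 cells, controls were set against cells overexpressing SLERT (OE), and in LoVo cells, controls against a SLERT knockdown (KD). The HCT116 control columns are headed as vector and the LoVo control columns as ShNC. The labels give no other agent, vector promoter or clone, and nothing that says whether libraries of a group were separate cultures, so the tests measure a spread that may be technical.

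These factors set up and maintain the cell types of the gut lining. CDX1 and CDX2 are homeodomain factors that specify intestinal identity, and together with the nuclear receptor HNF4A and the zinc finger factor GATA6 they switch on genes of absorptive enterocytes. SOX9 is a factor of crypt stem and Paneth cells, and SOX4, of the SOXC group, is active in progenitors and is often abundant in carcinomas. KLF5 is found in dividing crypt cells and KLF4 in differentiated cells of the villus or surface, while ATOH1 commits cells to the secretory lineage and is held down by Notch signalling.

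Total counts ran from 14.46 to 17.23 M per library. SNORA5C, the snoRNA at an end of SLERT, had 4 to 8 counts per HCT116 control and 551 to 714 per OE library. Its host gene TBRG4 rose there too (0.66 on the log2 scale, edgeR adjusted p = 5.24e-08). In LoVo SNORA5C summed to 37 counts in each arm, SNORA5A to 12 in controls and 10 with KD, and TBRG4 was not called (0.07). These genes of the locus thus did not show the labelled knockdown, and whether they report the level of SLERT itself was not tested. LoVo directions are given by label. The extraction text speaks of retinas. The 13 retina markers summed to between 6.57 and 15.6 CPM (counts scaled to library size) in every library, and OTX2 had no counts in any, whereas 10 colorectal epithelium markers summed to between 4490 and 8740 CPM. Of these, CEACAM5 had no counts in the HCT116 controls, where VIL1 (0.0834 CPM), CDH17 (0.629), LGALS4 (0.144) and TSPAN8 (0.0816) were also near 0. The sum there came almost wholly from KRT8 (2664 CPM), KRT19 (1141), KRT18 (588), EPCAM (202) and CDH1 (104). In LoVo 5 of the 10 were called higher and 4 lower with KD. Within the lines the retina list had 1 call, BEST1 in LoVo (0.92), lost without 5 of the 6 libraries in turn (all but KD 2). Between the controls of the lines, 2 of its 4 tested genes were higher and 1 lower in LoVo. Of the leukocyte, fibroblast and endothelium, and hepatocyte markers, none was called with OE in HCT116 and 1 of each list was called lower in LoVo with KD. These were CORO1A, COL3A1 and HPX, with summed list levels of at most 16.4 CPM in LoVo and 86.7 CPM in HCT116, and their part in the results was not tested.

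RefSeq promoters, from 250 bases before to 50 after a start, were found for 7 of the 9 genes (GRCh38.p14). SOX9 and CDX1 had no entry. Those of SOX4, CDX2, KLF4 and KLF5, called in LoVo under every alternative run there, and of HNF4A, with its separate starts, are shown, 5′ to 3′ on the gene's strand, so that the members' own recognition motifs can be looked for in them. Capitals mark any match, on either strand, to one of 8 motifs. The box of SP and KLF factors known as the GC box was spelled GGGCGG, and the second KLF box, named CACCC below, was spelled CCACCC. The core letters were ACAAAG for SOX factors, TTTATG for CDX factors, AGATAA for the GATA family and CAAAGT for HNF4 factors. An E-box bound by ATOH1 was searched as CAGCTG, and the TATA box as TATAAA. The SOX core and the HNF4 core can overlap. The windows are SOX4 at chr6:21593501-21593800 (plus strand), CDX2 at chr13:27969266-27969565 (minus strand), KLF4 at chr9:107489720-107490019 (minus strand), KLF5 at the upstream of its 2 starts at chr13:73054726-73055025 (plus strand), and both starts of HNF4A at chr20:44355449-44355748 and chr20:44400989-44401288 (plus strand).
SOX4: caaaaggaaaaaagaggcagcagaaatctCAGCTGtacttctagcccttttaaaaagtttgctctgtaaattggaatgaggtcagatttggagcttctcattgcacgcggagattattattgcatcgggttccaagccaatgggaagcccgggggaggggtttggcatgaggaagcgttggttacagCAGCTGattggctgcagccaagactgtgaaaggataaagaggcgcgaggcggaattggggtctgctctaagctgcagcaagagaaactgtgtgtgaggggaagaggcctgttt
CDX2: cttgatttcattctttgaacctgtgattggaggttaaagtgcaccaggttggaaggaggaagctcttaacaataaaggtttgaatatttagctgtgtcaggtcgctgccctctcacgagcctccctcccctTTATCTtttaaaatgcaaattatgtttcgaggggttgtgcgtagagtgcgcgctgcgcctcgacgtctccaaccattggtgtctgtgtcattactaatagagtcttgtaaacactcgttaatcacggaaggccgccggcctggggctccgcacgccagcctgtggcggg
KLF4: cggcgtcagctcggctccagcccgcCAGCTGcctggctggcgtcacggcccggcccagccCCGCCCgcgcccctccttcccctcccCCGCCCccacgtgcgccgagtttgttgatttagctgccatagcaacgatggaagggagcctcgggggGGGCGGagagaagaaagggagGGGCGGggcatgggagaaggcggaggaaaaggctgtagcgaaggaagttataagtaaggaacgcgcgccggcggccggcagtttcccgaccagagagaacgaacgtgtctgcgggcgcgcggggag
KLF5: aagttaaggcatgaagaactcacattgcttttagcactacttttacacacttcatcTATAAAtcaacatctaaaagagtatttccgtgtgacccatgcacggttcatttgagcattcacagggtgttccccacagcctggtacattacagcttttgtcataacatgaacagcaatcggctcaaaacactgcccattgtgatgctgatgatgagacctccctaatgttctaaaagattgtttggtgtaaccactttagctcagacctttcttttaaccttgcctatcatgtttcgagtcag
HNF4A upstream start: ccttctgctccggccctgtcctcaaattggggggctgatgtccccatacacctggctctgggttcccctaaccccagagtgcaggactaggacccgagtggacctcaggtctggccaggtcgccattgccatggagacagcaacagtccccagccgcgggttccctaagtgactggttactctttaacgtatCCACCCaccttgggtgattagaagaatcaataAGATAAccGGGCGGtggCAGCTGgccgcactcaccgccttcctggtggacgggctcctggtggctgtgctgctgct
HNF4A downstream start: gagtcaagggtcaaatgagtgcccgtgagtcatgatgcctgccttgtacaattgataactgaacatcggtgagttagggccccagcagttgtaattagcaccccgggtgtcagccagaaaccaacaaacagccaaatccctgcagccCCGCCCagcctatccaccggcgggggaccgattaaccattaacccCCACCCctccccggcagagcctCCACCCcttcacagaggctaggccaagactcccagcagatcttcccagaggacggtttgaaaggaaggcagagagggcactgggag

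The SOX4 window held CAGCTG at 2 places, a motif present in 17.9% of the 35116 promoters of the table, and no match to the other 7. The CDX2 window held 1 GATA core, which 10.3% of promoters hold, and the upstream KLF5 window 1 TATA box (11.5%). At the downstream KLF5 start, not shown, there were 2 GC boxes and no TATA box. The KLF4 window held 4 GC boxes and 1 CAGCTG. Both HNF4A windows held a GC box (in 45.0% of promoters) and a CACCC box (34.3%), and the upstream one also a GATA core and CAGCTG. None of the 9 member promoters in the table held a SOX core (16.1%), a CDX core (10.6%) or an HNF4 core (11.9%) in these letters. The RefSeq starts of SOX4, CDX2 and KLF4 lie inside the gene spans that GENCODE v29 gives below. A match is a run of letters, not a measured binding site, and gene-level counts cannot tell which HNF4A or KLF5 start was used.

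The control libraries of the lines held different sets of these factors. Per gene length, as FPKM in the deposited table, HCT116 was led by SOX4 and LoVo by KLF5, CDX2 and SOX9. The lengths behind these values differ from the exonic lengths of GENCODE v29, as for HNF4A (10167 against 7311 bases) and SOX4 (4869 against 5852). The order of genes with close values can therefore depend on the length used. In the HCT116 controls the order was SOX4 (98.5 ± 4.64 FPKM, SD, n = 3), SOX9 (40.1 ± 4.50), KLF5 (27.1 ± 1.21), KLF4 (19.2 ± 1.09) and CDX2 (6.29 ± 0.686). HNF4A (2.09 ± 0.128) and GATA6 (2.08 ± 0.587) overlapped, and ATOH1 stood at 0.107 ± 0.0235. CDX1 had no counts in any of the 6 HCT116 libraries, which allows up to 3 counts over each group of 3.

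In the LoVo controls KLF5 (73.1 ± 5.69 FPKM), CDX2 (62.4 ± 5.68) and SOX9 (62.1 ± 1.76) stood at the top. CDX2 overlapped KLF5 and SOX9, while KLF5 (at least 68.31 FPKM) lay above SOX9 (at most 63.32 FPKM). KLF4 (27.5 ± 1.22), HNF4A (20.05 ± 0.655), SOX4 (13.5 ± 0.314), GATA6 (5.10 ± 0.703), CDX1 (0.993 ± 0.132) and ATOH1 (0.0612 ± 0.00114) followed without overlap between neighbours. SOX4 thus went from the first place of the order in HCT116 to the sixth in LoVo.

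**Figure D1:**
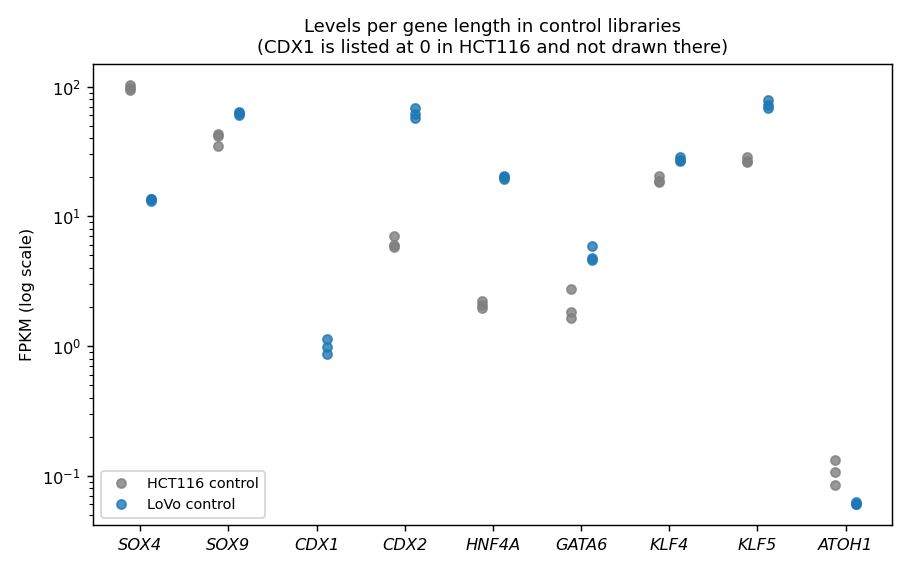
FPKM of the 9 genes in the control libraries, on a log axis, with 1 point per library (grey for HCT116, blue for LoVo). SOX4 is the only gene among those fitted that lies higher in HCT116, at 94.4 to 103.5 FPKM against 13.2 to 13.7 in LoVo. CDX2 and HNF4A show the widest gaps in the other direction among genes with counts in both lines.

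Of the 9 genes, 8 passed the filter on low counts between the control libraries, and all 8 were called by edgeR, 7 higher and 1 lower in LoVo. CDX1 is 1 of these 7. It had no counts in the HCT116 controls and passed the filter only through LoVo, so its call could only be higher. In the same fit 79.0% of 17143 genes were called, 39.0% higher and 39.9% lower, so a call here is common. SOX4 was 7.79-fold lower in LoVo (log2 fold change -2.96, SE 0.057). CDX2 was 9.26-fold higher (3.21, SE 0.075) and HNF4A 8.97-fold higher (3.17, SE 0.065). KLF5 was 2.53-fold, GATA6 2.29-fold, SOX9 1.45-fold and KLF4 1.34-fold higher. CDX1 had 78 counts over the LoVo controls, at least 27.6-fold higher than a floor of 3 counts over the HCT116 controls. Each line has its own control construct and culture, which cannot be told apart from the line.

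Other gut regulators and targets of the intestinal factors also differed between the lines. Among 21 tested endoderm and gut regulators, 13 were higher and 8 lower in LoVo. FOXA2, a pioneer factor of endoderm, stood at 0.640 ± 0.139 CPM in HCT116 and 28.8 ± 0.297 CPM in LoVo. Of 15 tested enterocyte targets of CDX and HNF4 factors, 12 were higher in LoVo and 1 lower. CDH17, an intestinal cadherin and known CDX2 target, stood at 0.629 ± 0.420 against 268 ± 8.13 CPM, VIL1, which encodes villin, at 0.0834 ± 0.0401 against 97.2 ± 3.58 CPM, and MUC13, a membrane mucin, at 0.150 ± 0.210 against 239 ± 4.17 CPM. Crypt stem and progenitor genes were split, with 6 of 16 tested higher and 8 lower in LoVo, and so were goblet products, with 4 of 8 higher and 4 lower. The stem cell receptor gene LGR5 stood at 0.107 ± 0.136 CPM in HCT116 and 185 ± 2.36 CPM in LoVo, and the goblet mucin MUC2 at 0.471 ± 0.113 and 67.8 ± 4.69 CPM. In the same lists MSI1 (43.6 ± 5.53 against 4.59 ± 0.0659 CPM), the receptor gene EPHB3 (26.8 ± 1.94 against 2.05 ± 0.526 CPM) and FCGBP (12.2 ± 1.30 against 5.43 ± 1.16 CPM) were higher in HCT116. Notch pathway genes were split as well, with 5 of 14 tested higher and 8 lower in LoVo. KLF and SP genes outside the members were too, with 5 of 18 higher and 8 lower. Among those higher in HCT116 were the receptor gene NOTCH3 (122 ± 9.04 against 4.85 ± 0.631 CPM) and KLF10 (161 ± 5.52 against 25.3 ± 2.35 CPM). Adjusted p-values of these genes, from edgeR, were at most 2.83e-25, apart from FOXA2 (8.21e-23), MSI1 (2.87e-21), EPHB3 (6.97e-20) and FCGBP (5.59e-08).

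Within a line, SOX4 fell in both. SOX4 (ENSG00000124766, chromosome 6, 21592768 to 21598619, plus strand, GENCODE v29) had 472.5, 498 and 459 normalised CPM in the HCT116 controls and 349.8, 343 and 325 CPM in the OE libraries. The groups did not overlap, and every OE library lay below every control. The log2 fold change was -0.49 (SE 0.053, 95% interval -0.60 to -0.38, edgeR adjusted p = 2.15e-06), 1.41-fold lower. In LoVo it had 65.8, 66.0 and 63.9 CPM in the controls and 45.2, 41.6 and 44.6 CPM in the KD libraries, again without overlap. That log2 fold change was -0.58 (SE 0.072, interval -0.72 to -0.43, adjusted p = 2.71e-06), 1.49-fold lower. The HCT116 call was lost with limma on log2(FPKM + 1) (adjusted p = 0.0791) and log2(FPKM + 0.1) (adjusted p = 0.0659), at log2 fold changes of -0.51 in both. How often the arms did not overlap among all genes was not counted, here or below, so a lack of overlap is a description.

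**Figure D2:**
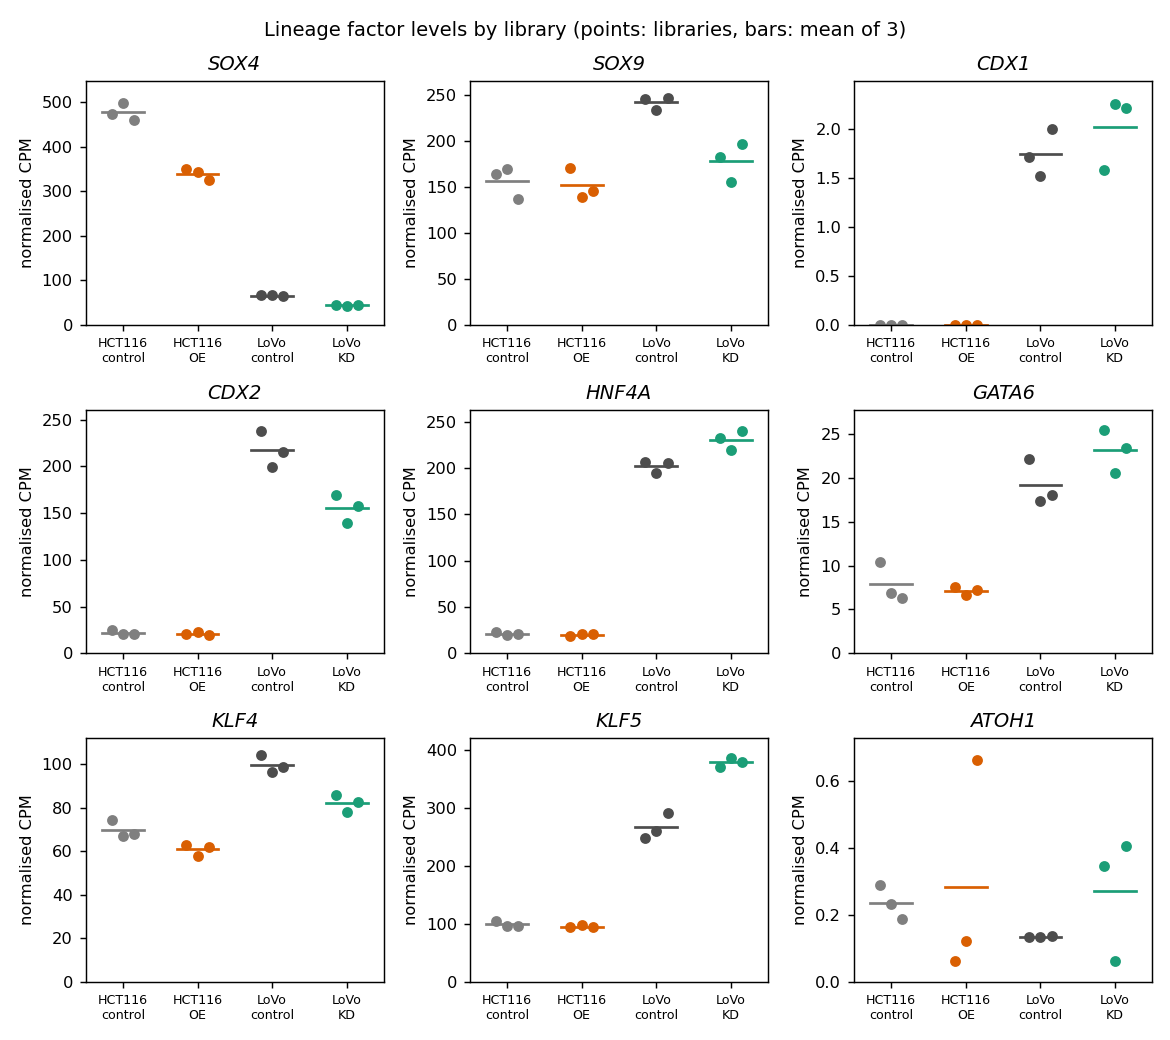
Normalised CPM of each of the 9 genes by group, scaled within each line, with points for libraries and bars for the mean of 3, each panel from 0. SOX4 lies lower in both manipulated groups than in the control of the same line, while SOX9, CDX2, KLF4 and KLF5 separate the groups most clearly in LoVo.

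SOX4 was the only member called in HCT116, 1 of 7 tested, where edgeR called 0.914% of 15980 genes and 0.407% as lower. With upper quartile factors 41.8% of all calls there were higher against 55.5% with TMM factors, 69.8% with DESeq2 and 44.0% with all 12 libraries in 1 fit. CDX1 and ATOH1 were too low to be tested in HCT116. In LoVo 6 of 8 tested members were called, 2 higher and 4 lower. There edgeR called 26.3% of 16253 genes, 12.6% higher and 13.7% lower, and on the FPKM scales 34.1 and 34.3% of calls were higher against 47.9%. SOX4, SOX9, CDX2 and KLF4 made up the lower calls and KLF5 and HNF4A the higher. The median log2 fold change was -0.05 over the 8 tested members in LoVo and -0.10 over the 7 in HCT116, against medians of all genes tested of 0.00049 and -0.0023.

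SOX9 (ENSG00000125398, chromosome 17, 72121020 to 72126420, plus strand) had 246, 234 and 247 CPM in the LoVo controls and 183, 155 and 196 CPM with KD. All 3 KD libraries lay below every control, and it fell by 0.45 on the log2 scale (SE 0.071, edgeR adjusted p = 6.07e-05). In HCT116 the values were 163.5, 169 and 137 CPM in the controls and 170.1, 139 and 146 CPM with OE. These overlap, and the log2 fold change was -0.05 (interval -0.20 to 0.10). Its sign turned without control 2 (0.01) or OE 2 (0.01).

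Of the 14 other SOX genes, 7 were tested in HCT116 and 6 in LoVo. SOX12, which belongs to the SOXC group with SOX4, fell in LoVo from 68.2 ± 1.71 to 47.1 ± 4.73 CPM (a log2 change of -0.54 with an SE of 0.077, adjusted p = 1.94e-05 in edgeR), and SOX13, a SOXD gene, from 199.7 ± 7.53 to 144 ± 14 CPM (-0.47, SE 0.068). No other SOX gene was called in either line. SOX8, a relative of SOX9, stood at 22.9 ± 1.60 CPM in the HCT116 controls and had no counts in the LoVo controls.

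Per length, SOX4 made up 56.1 to 59.0% of the summed FPKM of the SOX genes in the HCT116 controls and 48.3 to 51.9% with OE. In LoVo its share was 10.9 to 11.6% in the controls and 9.95 to 11.1% with KD. SOX9 held 51.1 to 52.4% and 51.3 to 54.3% there, so the ranges of both shares overlapped between the LoVo arms. The difference in shares was not tested.

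**Figure D3:**
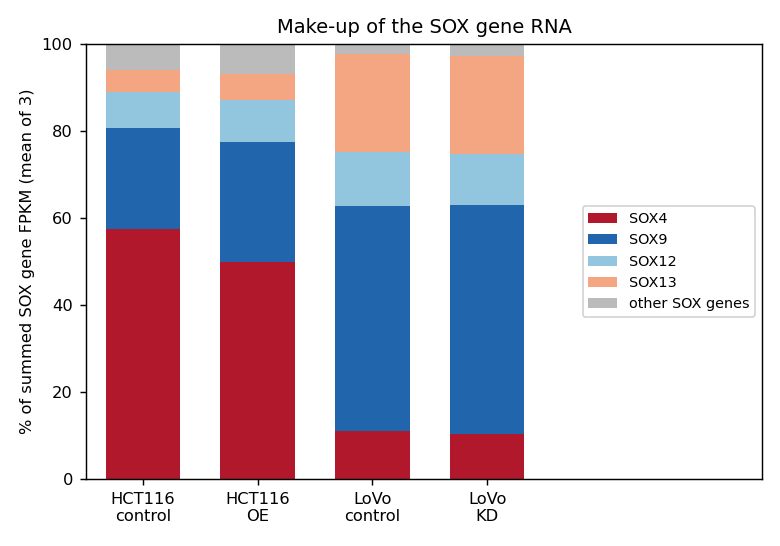
Share of the summed FPKM of the SOX genes in each group, as the mean of 3 libraries, with colours for SOX4, SOX9, SOX12, SOX13 and the rest. SOX4 takes 57.5% in HCT116 controls and 49.9% with OE, and SOX9 takes 51.7% in LoVo controls and 52.5% with KD.

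CDX2 (ENSG00000165556, chromosome 13, 27962137 to 27971139, minus strand) had 238, 199 and 216 CPM in the LoVo controls and 169, 139.8 and 158 CPM with KD. The groups did not overlap, and it fell by 0.48 on the log2 scale (SE 0.073, edgeR adjusted p = 3.18e-05), 1.40-fold. In HCT116 it had 24.7, 21.1 and 20.2 CPM in the controls and 21.1, 22.8 and 19.2 CPM with OE, which overlap (log2 fold change -0.06, interval -0.27 to 0.14). The sign turned without control 1 (0.03). CDX1 (ENSG00000113722, chromosome 5, 150166795 to 150184558, plus strand) had 26, 23 and 29 counts in the LoVo controls and 23, 36 and 33 with KD. At this depth the interval of its log2 fold change ran from -0.38 to 0.82.

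HNF4A (ENSG00000101076, chromosome 20, 44355700 to 44434596, plus strand) had 207, 194 and 205 CPM in the LoVo controls and 232, 219 and 239 CPM with KD. It rose by 0.19 on the log2 scale (SE 0.059, edgeR adjusted p = 0.0215), with every KD library above every control. This call was lost without KD 3 (0.16), control 2 (0.16) or control 3 (0.20). In HCT116 it had 22.5, 19.8 and 21.0 CPM in the controls and 18.4, 20.4 and 20.5 CPM with OE (-0.10, interval -0.29 to 0.10). HNF4G, its close paralogue, rose in LoVo from 21.7 ± 1.32 to 35.0 ± 3.09 CPM (0.69, SE 0.093).

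GATA6 (ENSG00000141448, chromosome 18, 22169443 to 22202528, plus strand) had 22.2, 17.4 and 18.1 CPM in the LoVo controls and 25.6, 20.6 and 23.4 CPM with KD, which overlap. Its log2 fold change of 0.27 (SE 0.11) was not called (edgeR adjusted p = 0.0770). It was called without KD 2 (0.36) or without control 1 (0.39). In HCT116 it had 10.4, 6.92 and 6.26 CPM in the controls and 7.56, 6.64 and 7.23 CPM with OE. Control 1 stood above the other libraries there, and without it the log2 fold change turned from -0.14 to 0.11.

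KLF5 (ENSG00000102554, chromosome 13, 73054976 to 73077542, plus strand) rose in LoVo from 248, 261 and 291 CPM in the controls to 370.3, 386 and 379 CPM with KD. This was 1.42-fold without overlap (a log2 change of 0.50 with an SE of 0.062, adjusted p = 1.98e-06 in edgeR), and it placed KLF5 alone at the head of the order per length, at 101.5 ± 2.39 FPKM. In HCT116 it had 104, 96.6 and 96.2 CPM in the controls and 93.9, 97.1 and 94.0 CPM with OE (-0.06, interval -0.18 to 0.06). KLF4 (ENSG00000136826, chromosome 9, 107484852 to 107490482, minus strand) went the other way in LoVo. It had 104.4, 96.3 and 98.5 CPM in the controls and 85.9, 78.1 and 82.7 CPM with KD, and fell by 0.28 on the log2 scale (SE 0.066, adjusted p = 0.00315). In HCT116 it had 74.6, 67.1 and 68.0 CPM in the controls and 63.0, 58.0 and 61.9 CPM with OE. Those groups did not overlap either, but the log2 fold change of -0.20 (SE 0.067) was not called (adjusted p = 0.149).

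**Figure D4:**
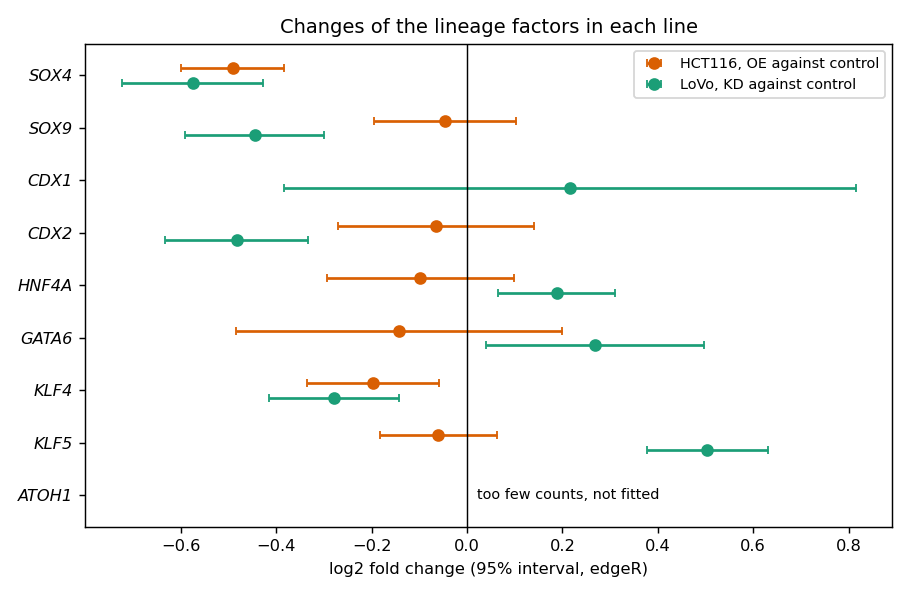
Log2 fold changes of the members with 95% intervals from edgeR, orange for OE against control in HCT116 and green for KD against control in LoVo, with ATOH1 and CDX1 in HCT116 not fitted. SOX4 lies left of 0 in both lines (-0.49 and -0.58), while SOX9, CDX2 and KLF5 lie away from 0 in LoVo and near it in HCT116.

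ATOH1 (ENSG00000172238, chromosome 4, 93828753 to 93830964, plus strand) was close to the limit of detection. It had 5, 4 and 3 counts in the HCT116 controls and 1, 2 and 10 with OE, and 2, 2 and 2 counts in the LoVo controls and 5, 1 and 6 with KD. The groups overlap in both lines, and no difference was detectable at this depth. Exact permutation tests on CPM, two-sided, gave p = 1 in HCT116 and p = 0.4 in LoVo, where 0.1 is the smallest p that 3 libraries against 3 allow.

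The changes were also compared between the lines in the direction of more SLERT by label, OE minus control in HCT116 and control minus KD in LoVo. Of 7 members with a fitted difference, 5 were called by edgeR, where 14.6% of 18199 genes were. For SOX4 the difference was -1.07 (SE 0.081, adjusted p = 2.20e-10), since it was lower with OE in HCT116 and higher in the controls than with KD in LoVo. The difference was -0.55 for CDX2, -0.49 for SOX9, -0.48 for KLF4 and 0.44 for KLF5, and it was not called for HNF4A (0.09) or GATA6 (0.12). This sign rests on the LoVo label, which the SNORA5C counts above did not bear out, so the difference was also taken as manipulated minus control in both lines, a comparison added after the data were seen. Then 4 of the 7 were called, where 11.6% of 18199 genes were. SOX4 (0.07, SE 0.081, adjusted p = 0.661) and KLF4 (0.07, SE 0.093, adjusted p = 0.719), which were lower without overlap in both lines, were not among them in that edgeR fit. The called ones were KLF5 (-0.58), CDX2 (0.40), SOX9 (0.38) and HNF4A (-0.30), and GATA6 (-0.43) was not called.

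Other genes of the intestinal programme were taken from 9 lists with 177 genes besides the members. In HCT116, 110 were tested and 0 called by edgeR, with 14 at an unadjusted p under 0.05 and 0 called by DESeq2. Over all 15980 genes tested there, edgeR gave 2298 an unadjusted p under 0.05 and called 0.914%, so 0 calls among 110 says little. In LoVo, 55 of 118 tested were called (46.6%), 33 higher and 22 lower with KD, against the 26.3% of all genes given above. Their median log2 fold change was 0.07. In bulk RNA, fewer cells of a type and less RNA per cell cannot be told apart.

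Among relatives of the KLF members, more were called higher than lower in LoVo. Of 17 tested KLF and SP genes besides KLF4 and KLF5, 8 were higher and 1 lower with KD (median 0.18). KLF6, an injury-responsive factor, rose from 188 ± 5.03 to 290.5 ± 9.54 CPM (a log2 change of 0.63, SE 0.058), KLF3, a repressor that binds CtBP, from 96.6 ± 2 to 136 ± 10.5 CPM, and KLF11 from 20.1 ± 0.545 to 29.5 ± 0.352 CPM. The lower gene was SP5, a Wnt target (-0.85), whose call was lost without any of 4 of the 6 libraries (KD 2, KD 3, control 1 or control 3). Between 6 and 8 were higher whichever library was left out, and 7 or 8 without KD 1, KD 2 or control 3.

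Among 18 tested endoderm and gut regulators in LoVo, 4 were higher and 4 lower (median -0.01). ELF3 rose from 162 ± 8.27 to 238 ± 18.3 CPM (a log2 change of 0.56, SE 0.065) and EHF from 179 ± 8.59 to 242 ± 10.7 CPM (0.44, SE 0.061), both ETS factors of epithelia, and HNF4G and FOXA2 (0.38) were the others. The lower ones were ISX, an intestinal homeobox gene (-0.64), PRDM1, a repressor of the fetal gut (-0.42), HOXB13, of the hindgut (-0.43), and NR2F6 (-0.29), whose call was lost without KD 3, control 1 or control 3.

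The factors' targets were called in both directions in LoVo. Of 17 tested enterocyte targets, 6 were higher and 3 lower with KD (median 0.07). CDH17 rose from 274 ± 8.07 to 470 ± 27.3 CPM (a log2 change of 0.78 with an SE of 0.058, adjusted p = 8.11e-10 in edgeR). VIL1 fell from 99.4 ± 3.75 to 68.6 ± 7.49 CPM (-0.54, SE 0.075) and KRT20, a keratin of mature colonocytes, from 12.5 ± 0.937 to 5.90 ± 0.502 CPM (-1.08, SE 0.14), and CES2, a carboxylesterase, was the third (-0.53). MYO1A, a brush border myosin (0.60), LGALS4, a galectin (0.59), CA2 (0.83), HEPH (0.37) and TM4SF5 (1.16) were higher, the last with its call lost without any single library.

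Goblet and secretory products were higher with KD in 4 of 6 tested genes and lower in 0 (median 0.58). AGR2, a protein disulfide isomerase needed for mucin folding, rose from 14.3 ± 2.44 to 37.8 ± 3 CPM (a log2 change of 1.40 with an SE of 0.11, adjusted p = 1.52e-09 in edgeR). FCGBP, a mucus protein, rose from 5.55 ± 1.19 to 9.68 ± 1.03 CPM, ST6GALNAC1, a sialyltransferase of mucins, from 6.14 ± 0.800 to 10.7 ± 1.94 CPM, and MUC2 by 0.36 on the log2 scale. Of 11 tested secretory regulators, 3 were higher and 2 lower. POU2F3, the regulator of tuft cells, fell from 24.3 ± 1.86 to 11.3 ± 0.939 CPM (-1.11, SE 0.11) and HES6 from 38.6 ± 1.41 to 25.7 ± 1.82 CPM. RFX6, of enteroendocrine cells (1.12), CREB3L1 (0.63) and FOXA2 were the higher ones, and the call of CREB3L1 was lost without KD 1 or control 3. With 1 library left out, 2 to 4 were higher, with 2 without KD 1 or control 3.

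Of 14 tested Notch pathway genes, 2 were higher and 5 lower with KD (median -0.09). HES1, the Notch effector that represses ATOH1, rose from 54.7 ± 2.13 to 79.6 ± 5.72 CPM (a log2 change of 0.54 with an SE of 0.072, adjusted p = 6.53e-06 in edgeR), while the receptor genes NOTCH1 (114 ± 14.5 to 79.0 ± 14.3 CPM) and NOTCH2 (266 ± 9.59 to 226 ± 12 CPM) fell. With 1 library left out, 1 or 2 were higher and 3 to 5 lower, and 1 was higher without KD 2, KD 3, control 1 or control 3. Of 16 tested crypt stem and progenitor genes, 5 were higher and 3 lower (median 0.10). AXIN2, a Wnt feedback gene, fell from 279 ± 3.22 to 222 ± 2.16 CPM and TNFRSF19 from 57.2 ± 1.55 to 42.0 ± 2.81 CPM, whereas MSI1, an RNA-binding protein of stem cells, rose from 4.70 ± 0.0649 to 7.81 ± 0.245 CPM. Without single libraries the number higher was 4 or 5, and the number lower was 2 without KD 3 or control 1 and otherwise 3.

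**Figure D5:**
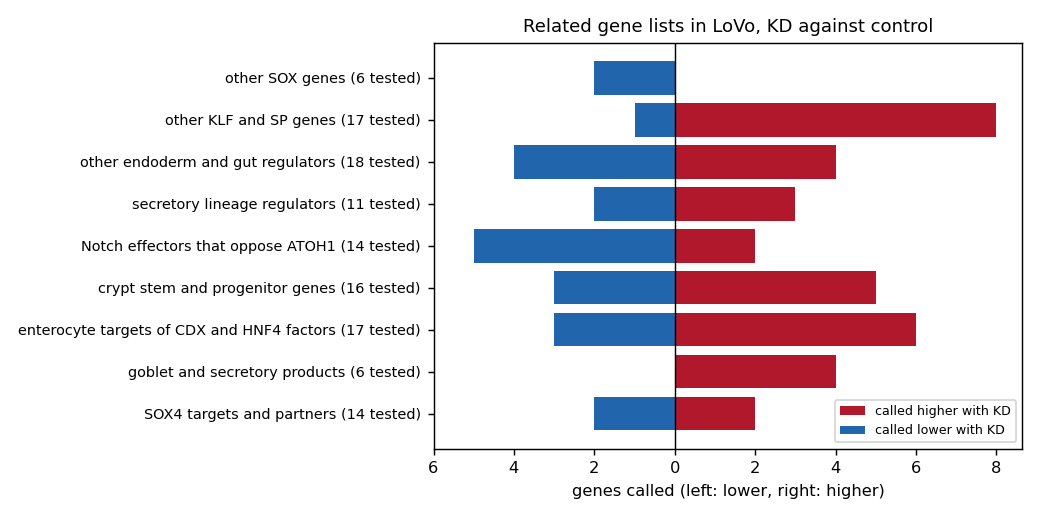
Number of genes called by edgeR in each related list in LoVo, to the right for higher and to the left for lower with KD, with the number tested in brackets. KLF and SP genes (8 against 1) and goblet products (4 against 0) lean to the right and other SOX genes (0 against 2) to the left.

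Of 14 tested genes described as SOX4 targets or partners, 2 were higher and 2 lower with KD (median 0.06). TCF12, a bHLH factor, rose from 118 ± 4.23 to 151 ± 8.82 CPM and STMN1 from 238 ± 12.1 to 273 ± 10.8 CPM, the latter not called without control 1 or control 3. LEF1, a Wnt effector, fell from 55.3 ± 3.31 to 41.3 ± 0.719 CPM (a log2 change of -0.42, SE 0.075), and TEAD2 fell from a low level, with a call that held only without KD 1 when single libraries were left out. LEF1 had no counts in the HCT116 controls. As single libraries were left out, 4 of these genes were higher without KD 1 and 1 without control 1 or control 3, and 2 were lower without KD 1 or control 3 and otherwise 1. Without control 3 the second lower gene was TUBB3, a neuronal tubulin, in place of TEAD2.

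Genes most like SOX4 were sought by Pearson correlation of log2 CPM, centred on the mean of each line, over the 12 libraries and 10061 genes. TUBG2 (r = 0.96), TAF8 (0.95), TPCN1 (0.95), CABLES2 (0.94) and CLSTN3 (0.94) came first, with log2 fold changes of -0.25, -0.14, -0.21, -0.23 and -0.16 in HCT116 and -0.27, -0.17, -0.27, -0.40 and -0.24 in LoVo. None of the 5 was called in HCT116, and all but TAF8 were called in LoVo. SF3B3 (r = -0.97), MTHFD1 (-0.97) and SNHG7 (-0.96) were the most opposite, and SNHG7, a snoRNA host gene, had log2 fold changes of 0.30 and 0.38. The points share libraries and arms, so the correlations are a description.

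Reads of genes that overlap the members could enter their counts, since the strand setting is not given in the sources used here. AL512380.2, antisense to SOX4 with 168 shared exonic bases, had no counts in HCT116 and at most 4 per LoVo library, against 655 to 997 for SOX4. GATA6-AS1 shares 240 exonic bases with GATA6 and had 38 to 57 counts per LoVo control and 52 to 80 with KD. GATA6 itself had 262 to 335 and 327 to 370 counts there, and the part of GATA6-AS1 in its change was not tested. AC091588.3 shares 321 bases with GATA6 and had at most 9 counts. SOX9-AS1 and HNF4A-AS1 share no exonic base with their partner. SOX9-AS1 had 40 to 57 counts per HCT116 control and 22 to 31 with OE, and HNF4A-AS1 at most 15 counts in any library.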

How the data were processed

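RNA was measured by sequencing in 12 libraries, 3 per group. The read counts per Ensembl gene were deposited by the authors, not normalised, and the FPKM values were deposited by the authors for 38828 genes. A length per gene, solved from the FPKM values themselves, gave back every value from the count and column total (largest relative deviation 4.43e-16). Since no outside length was used, this shows only that a gene's length did not vary between libraries. HISAT2 2.1.0 and GRCh38 are named per the submitters' processing notes. For the counter, annotation release and strand setting, the sources used here give nothing. Symbols came from a table of gene names by identifier, coordinates from GENCODE v29 on GRCh38. The control columns of HCT116 carry no sample number, and their mapping rests on the vector heading.

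Each contrast was fitted over all genes with edgeR 4.0.16 in R 4.3.3 (quasi-likelihood F test, TMM factors, filterByExpr), with Benjamini-Hochberg adjustment over all genes tested and calls at an adjusted p under 0.05. The SE is the log2 fold change divided by the root of F. CPM values use the TMM factors of the line's fit, apart from list genes compared between the lines, which use those of the fit of the controls. For a gene without counts, a floor of 3 counts over the group was used, which covers counting error only. The code was tested on simulated data. Within groups, pairs of libraries gave chi-square values of 2.401 to 6.634 per degree of freedom, more than counting error alone would give. Each library was taken as 1 replicate, although these values cannot tell whether libraries were separate cultures.

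The members and lists were chosen with earlier results of these data known. The rule named all members, in each list the 3 called genes of smallest p, genes at the member loci, and the 5 most and 3 least similar to SOX4 among genes with an average log2 CPM of at least 3. Of these, the genes described most fully are given, and further genes of small counts were named after their values were seen. Alternatives were RLE and upper quartile factors, DESeq2 1.42.0, no filter, limma 3.58.1 on log2(FPKM + 1) and log2(FPKM + 0.1) with a mean FPKM of at least 0.5 in either group, all libraries in 1 fit, leaving out each library, and a replicate block in LoVo. Added after seeing the data were a block on the heading number in HCT116 and the difference between the lines with LoVo as KD minus control. A single gene of the lists, with its values, is not reported here.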

Additional observations from a re-analysis of the deposited data

Results flagged for a closer look

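For 5 members the log2 change with more SLERT by label differed between HCT116 and LoVo by edgeR's test of the difference itself over all 12 libraries. The difference, HCT116 minus LoVo, was -1.07 for SOX4 (adjusted p = 2.20e-10), -0.493 for SOX9 (0.00365), -0.55 for CDX2 (0.00294), -0.477 for KLF4 (0.000793) and 0.442 for KLF5 (0.000604). SOX4 was lower in 3 of 3 OE libraries than in any HCT116 control and lower in 3 of 3 KD libraries than in any LoVo control. KLF4 was likewise lower without overlap in both lines. With manipulated minus control in both lines, the differences were 0.0681 for SOX4 and 0.0662 for KLF4, neither called (adjusted p = 0.661 and 0.719), 0.383 for SOX9, 0.403 for CDX2 and -0.579 for KLF5, all called. For SOX9, CDX2 and KLF5 the arms overlapped in HCT116 and not in LoVo. The share of all genes whose arms did not overlap was not counted. At the SLERT locus, SNORA5C and TBRG4 were not called in LoVo with KD, and SNORA5A had too few counts to be fitted. Whether these genes report the level of SLERT itself was not tested, nor was the part of this in the differences.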

How the results depend on the processing

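The number of genes called in HCT116, 146, was 281 with DESeq2, 256 without a filter, 4 with limma on log2(FPKM + 1) and 5 on log2(FPKM + 0.1), where 0 members were called, and 37 to 287 with 1 library left out (37 without control 1 or OE 3, 38 without control 2, 43 without OE 2, 287 without control 3). In LoVo, 4278 became 2185 and 2169 on the FPKM scales and 2769 to 4813 with 1 library left out, the lowest without control 3, and 2809 without control 1. In LoVo the calls of SOX4, SOX9, CDX2, KLF4 and KLF5 held in all 14 alternatives, and that of HNF4A was lost in 5, with log2 fold changes of 0.15 and 0.16 on the FPKM scales besides the libraries named above. With libraries left out, signs turned only for uncalled values in HCT116, for SOX9 without control 2 (0.0116) or OE 2 (0.0129; range down to -0.137), for CDX2 (0.0289; down to -0.125) and GATA6 (0.114; down to -0.277) without control 1, and, for the difference between the lines, GATA6 without HCT116 control 3 (-0.00385; up to 0.383). Taking LoVo as KD minus control, also added, turned the sign of the difference between the lines for all 7 fitted members. The values were 0.0681 (SOX4), 0.383 (SOX9), 0.403 (CDX2), -0.301 (HNF4A, then called), -0.427 (GATA6), 0.0662 (KLF4) and -0.579 (KLF5). A sign turns in this way when the change in LoVo is larger in size than that in HCT116. The causes of the signs turned by leaving out libraries were not tested. With the replicate block in LoVo, 5588 genes and 7 members were called, GATA6 being the addition (0.271, adjusted p = 0.0199). Same-numbered LoVo libraries correlated at 0.0685, 0.0852 and 0.0164, each best with its own number, which is a hint from the data only, and the numbers were not taken to pair the samples. In HCT116, where the control columns have numbers in their headings but no sample of their own, a replicate block on the heading number, added after the data were seen, called 1322 genes and 2 members, KLF4 being the addition (adjusted p = 0.0141). Same-numbered libraries correlated at 0.0473, 0.0337 and 0.0462 there, again each best with its own number. Counts of ATOH1 and CDX1 limit what can be seen of them.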

Other observations

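Of 14217 genes tested in both lines, SOX4 was 1 of 15 called lower both with OE in HCT116 and with KD in LoVo. A further 6 were called higher in both and 29 in opposite directions. Of the gastric and foregut markers, 2 of 4 tested were higher and 2 lower in the LoVo controls. MUC5AC stood at 1.19 ± 0.177 CPM in HCT116 and 4.61 ± 0.836 CPM in LoVo, and TFF2 at 0 and 3.30 ± 0.176 CPM. The annexin gene ANXA10 stood at 58.2 ± 0.458 CPM in the HCT116 controls and 0.326 ± 0.125 CPM in the LoVo controls, and the gastric mucin MUC6 fell in LoVo from 6.74 ± 1.43 to 3.55 ± 0.807 CPM (log2 fold change -0.93, edgeR adjusted p = 0.00140). HOXA13, a hindgut factor, stood at 7.57 ± 0.0152 CPM in the HCT116 controls and 145 ± 2.40 CPM in LoVo, and TCF7L2, the Wnt effector of the gut, at 204 ± 14.2 and 51.2 ± 2.71 CPM.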
